A study of Mus musculus with 9 samples.

Results

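Glycolysis splits glucose into pyruvate, which brain cells oxidise in mitochondria, convert to lactate or carboxylate to replenish the citric acid cycle. Astrocytes hold most of the glycogen of the brain and release lactate, which neurons take up and oxidise. Several steps are catalysed by isozymes from separate genes, and some of these genes are used mainly by astrocytes and others mainly by neurons. A list of 34 genes of glycolysis, glycogen metabolism, lactate transport and pyruvate entry was described in the hippocampus of Nestin;BrafKE/+ and Braf+/+ mice. Members were the rows of the deposited table that carried 1 of the 34 symbols and had a mean of at least 10 over the 9 libraries. All 34 symbols were found, in 35 rows, and all 35 rows were among the 16196 genes tested, out of 18275 in the table. The extra row is a second gene ID of the symbol Aldoa (ENSMUSG00000114515), which overlaps Aldoa on the same strand and had a mean signal of 10.5.

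RNA was sequenced from the dissected hippocampus of male mice aged 11 to 15 weeks, of the strain C57BL/6N by the labels, with 4 Nestin;BrafKE/+ and 5 Braf+/+ libraries. Nestin;BrafKE/+ mice carry 1 copy of a floxed K499E allele of Braf, a kinase upstream of ERK, that Nestin-Cre recombines in neural stem cells, so that neurons and glia derived from them carry it, while the Braf+/+ controls are littermates. The labels do not say whether the controls carried Cre, and nothing in them gives the littermates' pairing. Library names in the labels fall into 3 series, named A (1 mutant and 3 control libraries), B (2 mutant and 1 control) and C (1 of each), and what a series stands for is not stated.

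The table holds a normalised signal, in normalised counts, and not reads. Library totals ran from 19551300 to 20091500, and the depth behind a value is unknown. Braf itself had a mean signal of 2264 in the mutants and 2786 in the controls, with a log2 fold change of -0.30 (SE 0.065, limma, adjusted p = 0.0378), and a gene-level value does not separate the alleles. This is RNA, and the study saw no significant change in BRAF protein by Western blot of mutant hippocampus. Markers of astrocytes, neurons, oligodendrocytes, microglia and endothelium were all above 0 in every library. Choroid plexus markers, which belong to tissue beside the hippocampus, summed to 393760 in Braf+/+ replicate 2 and 114628 in Braf+/+ replicate 4, against 1487 to 24616 in the other 7 libraries. Aldoc, Slc2a3, Pcx, Pgm1, some enzyme ratios and the further pathway genes that passed are therefore also given without these 2 libraries. That alternative was chosen after the data had been seen. The tests of Braf and of the cell type markers are given only with all 9 libraries. Over all genes, 58 passed without Braf+/+ replicates 2 and 4, and 466 passed with them. Without Braf+/+ replicate 2 alone 314 passed, and without Braf+/+ replicate 4 alone 97. Without Nestin;BrafKE/+ replicate 1, which is among the other 7 libraries, 42 passed. Braf+/+ replicate 4 is the only control of series B, so the genotype difference without it rests on series A and C. Nestin;BrafKE/+ replicate 1 is the only mutant of series A.

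Of the members, 1 passed the test between the genotypes. Aldoc, the aldolase isozyme of astrocytes, rose in Nestin;BrafKE/+ hippocampus, and the other 34 rows did not pass the test. That does not show them to be unchanged, since the test misses small differences. With 200 genes altered in simulated data, drawn from all genes tested, the fit detected 0% of them at a log2 change of 0.25. At a log2 change of 0.5 it detected 44.5%. The median SE was 0.10 over all genes tested and 0.061 over the members. The 200 altered genes were also fewer than the 466 called in the data. The simulated shares are therefore not the detection rates of these members. Of the 35 rows, 18 were higher and 17 lower, with a median log2 fold change of 0.0068, against 0.00033 over all genes tested. The median absolute log2 fold change was 0.069, against 0.12 for all genes. With limma, 1 of 35 rows (2.86%) had an adjusted p under 0.05, and the share over all genes tested was 2.88%. An unadjusted p under 0.05 was found for 6 rows (17.1%), against 18.5% of all genes. The groups did not overlap for 5 rows (14.3%), against 15.7% of all genes. Without the series term 4 rows passed (Aldoc, Pcx, Pgm1 and Slc2a3), and so did 2260 of all genes. The list as a whole stood just below the background by each of the 3 shares, and 11 of the 35 rows had the same sign in all 3 series. In bulk tissue, more cells of a type and more RNA per cell cannot be told apart.

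**Figure D1:**
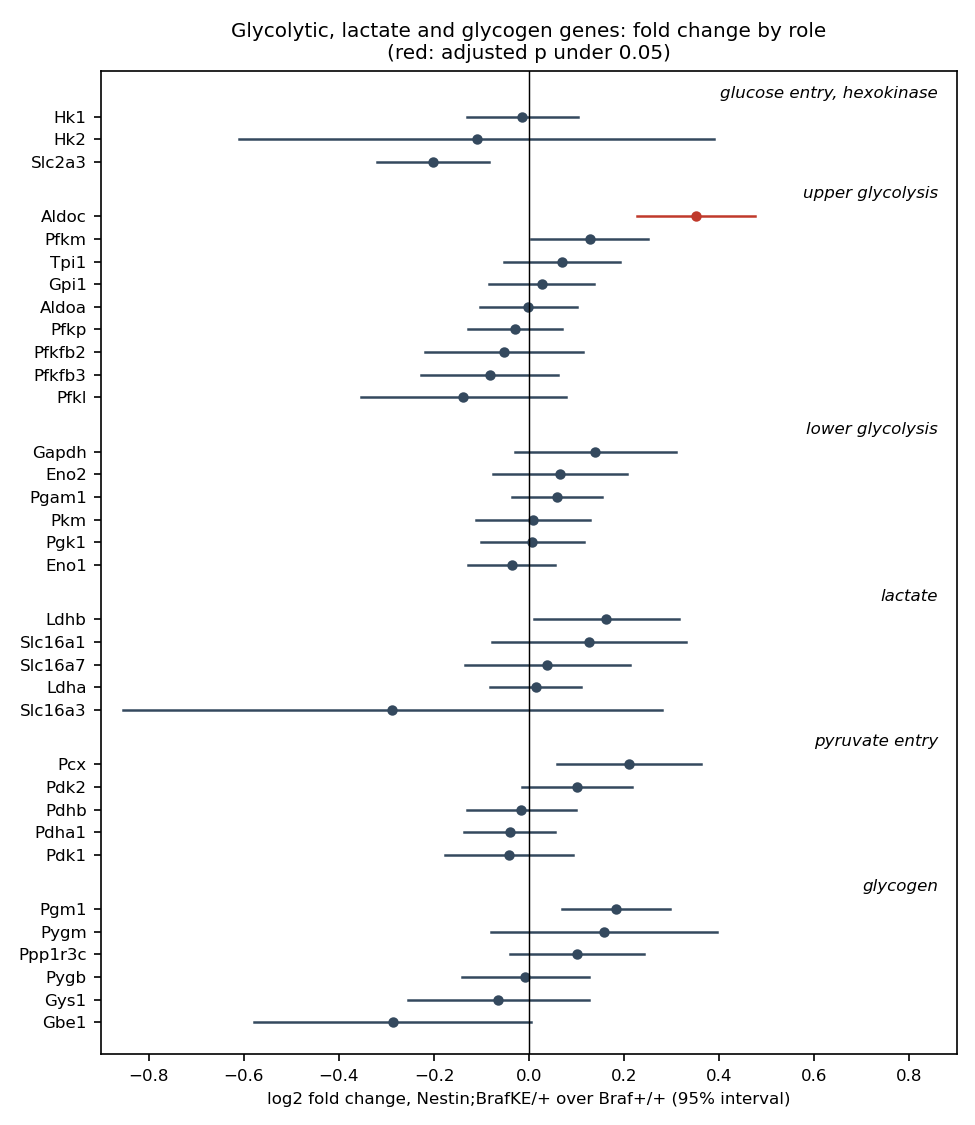
Log2 fold change of each member, Nestin;BrafKE/+ over Braf+/+, with its 95% interval from limma, grouped by role and ordered within a role. The second Aldoa row is left out. Aldoc, in red, is the 1 member past the threshold, at 0.35, and most abundant glycolytic enzymes lie close to 0.

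Glucose enters neurons through the transporter encoded by Slc2a3, and the hexokinases Hk1 and Hk2 phosphorylate it. Slc2a3 had the clearest difference of the members with lower values in the mutants. Its signal was 2160, 2371, 2252 and 2268 in Nestin;BrafKE/+ replicates 1 to 4. In Braf+/+ replicates 1 to 5 it was 2721, 2656, 2546, 2494 and 2596. All 4 mutant libraries lay below all 5 controls, yet the log2 fold change of -0.20 (SE 0.053) did not pass after adjustment (limma, adjusted p = 0.0725). From series A to C the difference was -0.29, -0.11 and -0.19. Without Braf+/+ replicates 2 and 4 the log2 fold change was -0.25 (adjusted p = 0.158). Hk1, the main hexokinase of the brain, ranged from 7112 to 7912 in the mutants and from 7143 to 7940 in the controls, with a log2 fold change of -0.015 (95% interval -0.13 to 0.10). Hk2 was measured at low signal, 88.3 to 169 in the mutants and 93.4 to 156 in the controls, and its interval ran from -0.61 to 0.39.

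Aldolase splits fructose 1,6-bisphosphate, and both brain isozymes were abundant. Aldoc (ENSMUSG00000017390) lies on the plus strand of chromosome 11, from 78213619 to 78218889 in GRCm39. Its signal was 17237, 17447, 18743 and 16617 in Nestin;BrafKE/+ replicates 1 to 4. It was 13421, 13834, 14090, 12849 and 14454 in Braf+/+ replicates 1 to 5. Every mutant library was above every control, with means of 17511 ± 894 (SD, n = 4) and 13730 ± 620 (SD, n = 5). The log2 fold change was 0.35 (SE 0.056, limma, adjusted p = 0.0106), a rise of 27.5% with a 95% interval from 17.0% to 38.9%. From series A to C it was 0.32, 0.49 and 0.20. The study already reported Aldoc among the reactive astrocyte genes that were higher in these same libraries, so the value here is no independent evidence of it. The call was lost without Nestin;BrafKE/+ replicate 1 (log2 fold change 0.37, adjusted p = 0.0742), without Braf+/+ replicate 4 (0.27, adjusted p = 0.0693) and without both Braf+/+ replicates 2 and 4 (0.27, adjusted p = 0.121). Each of these fits takes a whole series out of the comparison, A in the first and B in the others.

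Aldoa (ENSMUSG00000030695, chromosome 7, 126393822 to 126399923, minus strand), the ubiquitous aldolase that neurons use, did not follow Aldoc. Its signal was 27136, 29263, 27993 and 28722 in the mutants and 28852, 28528, 28606, 27617 and 27864 in the controls. All 5 controls lay within the range of the mutants, and the log2 fold change was -0.0016 with a 95% interval from -0.10 to 0.10 (limma, adjusted p = 0.990). Its sign turned under quantile normalisation and with 4 name prefixes as the term. The second Aldoa row had means of 9.72 and 11.2 in the mutants and controls, and an interval from -1.15 to 0.66.

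**Figure D2:**
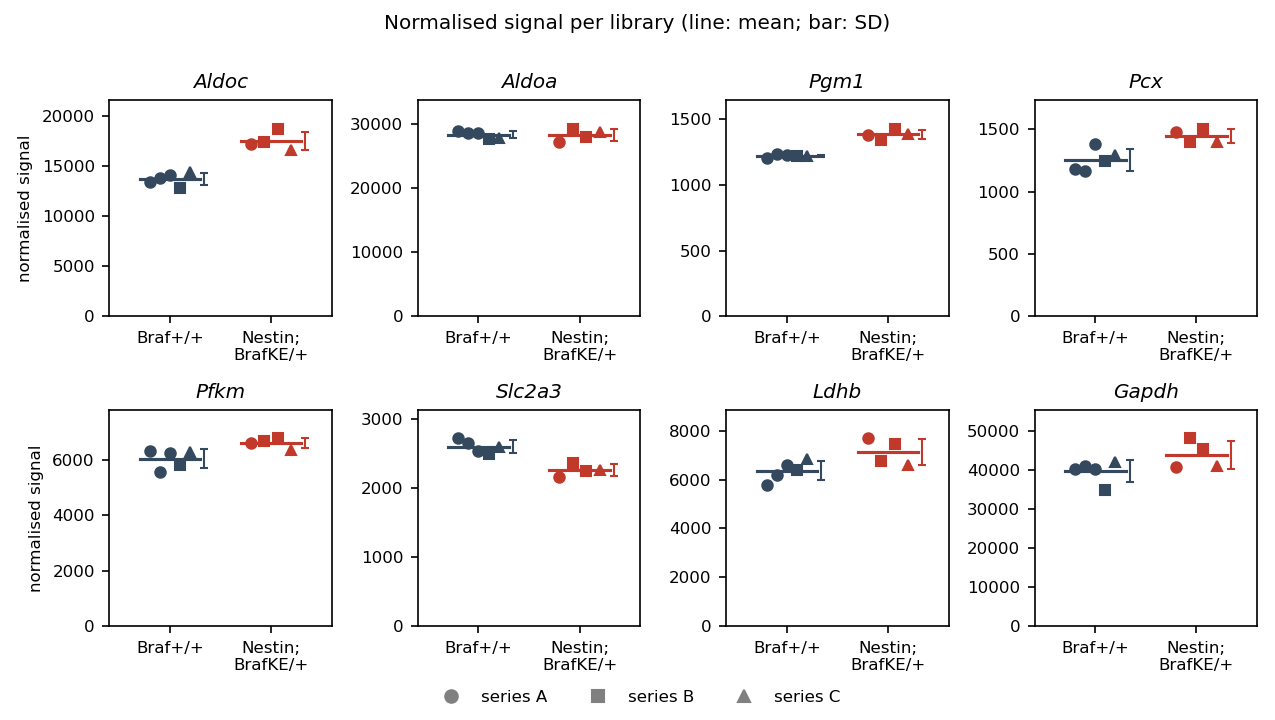
Normalised signal of 8 members in each library, with axes from 0, the group mean as a line and the SD as a bar, and the series by marker shape. Aldoc, Pgm1, Pcx and Pfkm are higher in all 4 mutant libraries than in the 5 controls, Slc2a3 is lower in all 4, and Aldoa, Ldhb and Gapdh overlap.

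The remaining upper steps showed no member past the threshold. Phosphofructokinase, which commits glucose to glycolysis, is built from the subunits Pfkm, Pfkl and Pfkp. Pfkm was 6333 to 6762 in the mutants and 5569 to 6304 in the controls, without overlap, but its log2 fold change of 0.13 did not pass (limma, adjusted p = 0.253) and was 0.01 in series C. A predicted gene, Gm26513, overlaps Pfkm on the same strand. Pfkl, the liver-type subunit, had a log2 fold change of -0.14 (95% interval -0.35 to 0.08), and its difference turned sign between series, at -0.31, 0.15 and -0.26 from A to C. Pfkp, the platelet-type subunit, was nearly level at -0.030, with an interval from -0.13 to 0.07. Pfkfb2 and Pfkfb3, which make the activator fructose 2,6-bisphosphate, had log2 fold changes of -0.053 and -0.083. Gpi1, which isomerises glucose 6-phosphate, was at 0.026, and Tpi1, which interconverts the triose phosphates, was at 0.069.

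The lower part of the pathway yields ATP and pyruvate, and 0 of its 6 members passed. Pgk1, Pkm, Eno1 and Pgam1, a kinase, the pyruvate kinase, an enolase and a mutase, had log2 fold changes of 0.0068, 0.0082, -0.037 and 0.058. Eno1 ranged from 12875 to 13234 in the mutants and from 13063 to 13648 in the controls. Eno2, the enolase of neurons, ranged from 13672 to 15438 and from 12968 to 14873, with a log2 fold change of 0.064 (95% interval -0.08 to 0.21). Gapdh, often used as a reference transcript, had a log2 fold change of 0.14 (95% interval -0.03 to 0.31, limma, adjusted p = 0.375). The difference was largest in series B, at 0.42, with 0.0048 in A and -0.035 in C, and Braf+/+ replicate 4, at 34874, was the lowest library, against 40347 to 42210 in the other controls. That library is the only control of series B, so without it the log2 fold change of Gapdh, -0.011, rested on series A and C. Several of these enzymes have processed pseudogene copies, so part of their reads may be assigned with uncertainty.

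For most of the abundant enzymes the interval was narrow. Of the 24 member rows with a mean of at least 1000, 16 had a 95% interval within 0.25 on the log2 scale on either side of 0, that is, an increase of under 18.9% or a decrease of under 15.9%, with a median SE of 0.053. They include Hk1, Gpi1, Pfkp, Aldoa, Tpi1, Pgk1, Pgam1, Eno1, Eno2, Pkm and Ldha. The other 8 were Slc2a3, Aldoc, Pfkl, Pcx, Pgm1, Ldhb, Pfkm and Gapdh, whose intervals reached beyond it. Both limits were chosen after the values had been seen, and each interval covers only the spread between libraries. The values had been adjusted for batches before deposit. The intervals do not allow for that step and may be too narrow, so they set no firm bound.

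Lactate dehydrogenase converts pyruvate and lactate into each other, with the LDHA subunit favouring lactate and LDHB pyruvate. Ldhb had signals of 7683, 6743, 7456 and 6615 in the mutants and of 5797, 6192, 6594, 6391 and 6831 in the controls. The groups overlapped, and its log2 fold change of 0.16 (SE 0.069) did not pass (limma, adjusted p = 0.242). It was 0.066 without Nestin;BrafKE/+ replicate 1. Series A to C gave 0.31, 0.15 and -0.05. Ldha ranged from 4460 to 4616 and from 4390 to 4599, with a log2 fold change of 0.014 (95% interval -0.08 to 0.11).

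Monocarboxylate transporters carry lactate across membranes, MCT1 (Slc16a1) in astrocytes, oligodendrocytes and endothelium, MCT2 (Slc16a7) in neurons and MCT4 (Slc16a3) in astrocytes. Slc16a1 had signals of 806 to 1006 in the mutants and 766 to 965 in the controls, a log2 fold change of 0.13 (95% interval -0.08 to 0.33), and its difference changed sign between series A and the others. Slc16a7 was at 0.039 (95% interval -0.14 to 0.21). Slc16a3, with signals of 21.1 to 33.8 and 24.1 to 38.0, had an interval from -0.85 to 0.28 and gives little information.

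Pyruvate enters the citric acid cycle by 2 routes, oxidation by the pyruvate dehydrogenase complex and carboxylation by pyruvate carboxylase (Pcx), an enzyme of astrocytes in the brain. Pcx (ENSMUSG00000024892, chromosome 19, 4559902 to 4672189, plus strand) had signals of 1482, 1398, 1506 and 1401 in the mutants. Its control values were 1183, 1165, 1379, 1242 and 1290, so that every mutant library was higher than every control, the closest pair being 1398 and 1379. The log2 fold change was 0.21 (SE 0.069), which did not pass (limma, adjusted p = 0.136), and the series gave 0.26, 0.22 and 0.12. Leaving out Braf+/+ replicates 2 and 4 gave 0.17 (adjusted p = 0.434). Pdha1, a catalytic subunit of pyruvate dehydrogenase, had signals of 5154, 4974, 4952 and 5091 in the mutants and 5163, 5164, 5109, 5357 and 5140 in the controls. Its log2 fold change was -0.041 (95% interval -0.14 to 0.05). Pdhb, its partner subunit, was at -0.016, and the inhibitory kinases Pdk1 and Pdk2 were at -0.042 and 0.10 (limma, adjusted p = 0.759 and 0.344).

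Glycogen is built by Gys1 and branched by Gbe1, broken down by the phosphorylases Pygb and Pygm, and linked to glycolysis by the phosphoglucomutase Pgm1, while Ppp1r3c brings a phosphatase to the particle. None of these 6 members passed. Pgm1 (ENSMUSG00000025791, chromosome 4, 99786394 to 99844492, plus strand) had the most even difference, with signals of 1380, 1346, 1430 and 1391 in the mutants and 1208, 1234, 1225, 1221 and 1218 in the controls. The control SD of Pgm1 was 9.47 at a mean of 1221. These values had been adjusted for batches before deposit, and the part of that step in the evenness was not tested. The groups did not overlap, and the log2 fold change of 0.18 (SE 0.052) was 0.18, 0.18 and 0.19 from series A to C (limma, adjusted p = 0.0913). Without Braf+/+ replicates 2 and 4 it was 0.19 (adjusted p = 0.293). Gbe1 had signals of 169 to 208 in the mutants and 197 to 268 in the controls, with a log2 fold change of -0.29 (95% interval -0.58 to 0.0042, adjusted p = 0.279). Gys1 was at -0.064, Pygb at -0.0081, Pygm at 0.16 (95% interval -0.08 to 0.39) and Ppp1r3c at 0.10 (95% interval -0.04 to 0.24). Members of the same glycogen pathway thus had values on both sides of 0, and 3 were higher and 3 lower.

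The members assigned to astrocytes were set beside those assigned to neurons. The assignment is from textbook knowledge and was not tested here. Of the 9 astrocyte-enriched members (Aldoc, Pfkfb3, Pygb, Pygm, Gys1, Gbe1, Ppp1r3c, Pcx and Slc16a1), 5 were higher and 4 lower, with a median log2 fold change of 0.10. By limma 1 of them, Aldoc, passed (11.1%, against 2.88% of all genes), and 2 had an unadjusted p under 0.05 (22.2%, against 18.5%). Of the 6 rows of the neuronal members (Aldoa, Eno2, Slc2a3, Slc16a7 and Hk1), 2 were higher and 4 lower, with a median of -0.0081. These rows had 0 calls by limma and 1 unadjusted p under 0.05 (16.7%). Aldoc and Pcx were higher without overlap, whereas Pfkfb3 and Gbe1 of the same group were lower.

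Ratios within a library set 2 enzymes against each other, so that a scale factor of the library drops out. In all, 10 ratios were compared by two-sided exact permutation tests within series (24 splits, smallest possible p = 0.0417), and 0 of 10 passed after Benjamini-Hochberg adjustment. With so few splits a ratio could pass after adjustment only if nearly all 10 reached the smallest p. The adjusted result therefore says little about any single ratio. The ratio of Aldoc to Aldoa signal was 0.635, 0.596, 0.670 and 0.579 in the mutants. In the controls it was 0.465, 0.485, 0.493, 0.465 and 0.519, below every mutant library. The log2 difference was 0.35 (SE 0.068), or 0.40, 0.44 and 0.16 from series A to C. Its exact permutation p was 0.0417, the smallest the design allows, and 0.208 after adjustment over the 10 ratios, and without Braf+/+ replicates 2 and 4 the difference was 0.30.

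The ratio of Pcx to Pdha1, which sets RNA for carboxylation of pyruvate against RNA for its oxidation, was the other ratio without overlap. The 2 are not isozymes, and Pcx is an enzyme of astrocytes. In bulk tissue a shift in cell share cannot be told apart from a shift within cells. The ratio was 0.288, 0.281, 0.304 and 0.275 in the mutants and 0.229, 0.226, 0.270, 0.232 and 0.251 in the controls. The log2 difference was 0.25 (SE 0.078), or 0.26, 0.33 and 0.13 from series A to C, with the same exact permutation p of 0.0417 (adjusted 0.208). Without Braf+/+ replicates 2 and 4 the difference was 0.18. Aldoc and Pcx entered these ratios with the differences given above, so that the ratios are not a second measurement of them.

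The other 8 ratios overlapped between the groups. The log2 difference was -0.27 for Pfkl to Pfkm and -0.15 for Ldha to Ldhb, both with an exact permutation p of 0.0833. It was 0.26 for the glial and endothelial glucose transporter Slc2a1 to Slc2a3 (exact permutation p = 0.125), where Slc2a1 itself had a log2 fold change of 0.055 (95% interval -0.16 to 0.27). Pygm to Pygb differed by 0.17, Eno1 to Eno2 by -0.10, Hk2 to Hk1 by -0.095, Slc16a1 to Slc16a7 by 0.088 and Pfkfb3 to Pfkfb2 by -0.030, with exact permutation p-values from 0.167 to 0.792. Without Braf+/+ replicates 2 and 4 the difference of Eno1 to Eno2 was 0.0026. Leaving out 1 library at a time turned the sign of Hk2 to Hk1 (-0.38 to 0.19), Slc16a1 to Slc16a7 (-0.10 to 0.29) and Pfkfb3 to Pfkfb2 (-0.074 to 0.068).

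**Figure D3:**
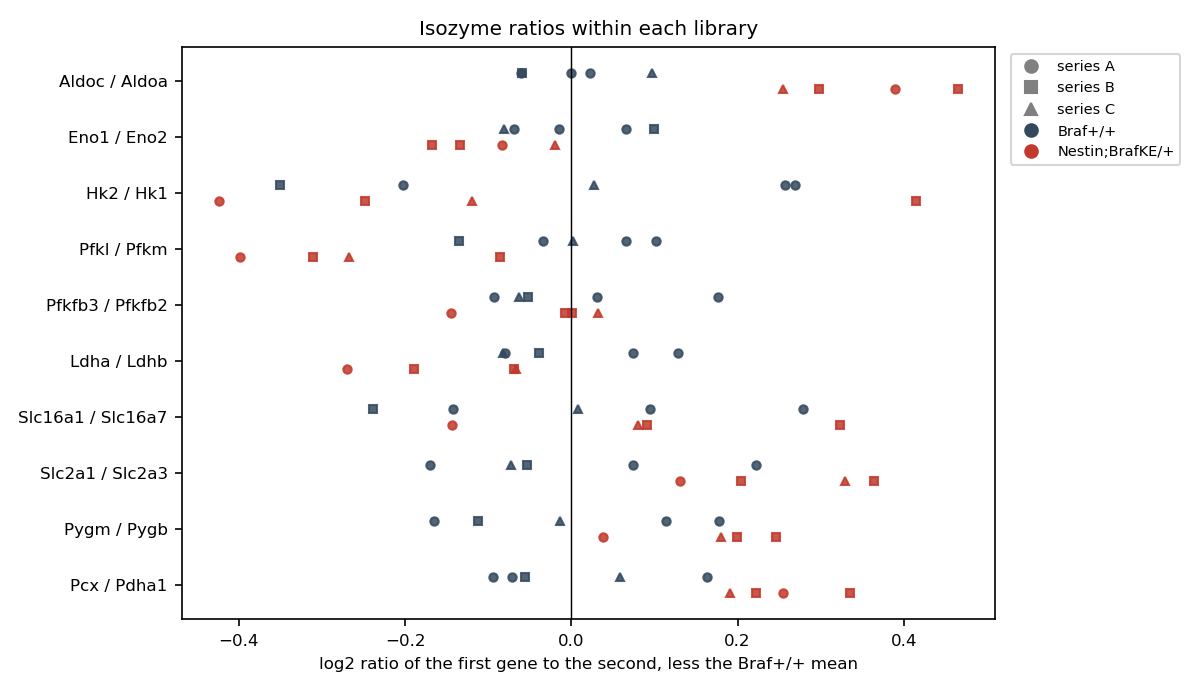
Log2 ratio of the first gene to the second in each library, less the mean of the Braf+/+ libraries, with colour for genotype and marker shape for series. Mutant and control libraries are separate for Aldoc to Aldoa and Pcx to Pdha1 and overlap for the other 8 ratios.

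Most markers of the same cells moved with Aldoc. Of 18 astrocyte markers, 15 were higher, with a median log2 fold change of 0.23 over the list. Slc7a10 (-0.34), Slc1a2 (-0.055) and Gja1 (-0.025) were lower. The unadjusted p was under 0.05 for 14 of the 18 (77.8%, against 18.5% of all genes). Of the 18, 5 passed (27.8%, against 2.88% of all genes). They were Gfap at 0.68, Ndrg2 at 0.44, Acsbg1 at 0.38, S100b at 0.36 and Atp1b2 at 0.27. The study already reported Gfap and S100b as higher in these same libraries, so their values here are no independent evidence. The summed signal of the 18 was 167132 to 186146 in the mutants and 154466 to 168918 in the controls, and 4 of the 18 had a larger log2 fold change than Aldoc. The log2 signal of Aldoc less the mean log2 of the 18 markers was 2.05 to 2.14 in the mutants and 1.88 to 2.00 in the controls. It differed by 0.14 between the genotypes without overlap, and by 0.11, 0.25 and 0.05 from series A to C. All 11 oligodendrocyte markers were also higher (median 0.29), with 4 (36.4%) past the threshold (Mobp, Mog, Cldn11 and Mag). Their summed signal over the 11 was 130414 to 140622 against 95511 to 115934. Of 10 excitatory neuron markers, 4 were higher and 6 lower, with a median of -0.085. In that list 1 passed (10%, against 2.88% of all genes), Neurod2, which fell by 0.53 on the log2 scale. The unadjusted p was under 0.05 for 4 of the 10 (40%, against 18.5% of all genes). Of these, Nrgn was higher, and Neurod2, Tbr1 and Emx1 were lower. Inhibitory neuron, microglial, endothelial, blood and choroid plexus markers had 0 calls by limma, with 3 of 10, 3 of 10, 1 of 10, 4 of 5 and 4 of 10 at an unadjusted p under 0.05, against 18.5% of all genes. Higher values were found for 9 of 10, 8 of 10, 6 of 10, 5 of 5 and 0 of 10 of them. The medians were 0.10, 0.12, 0.030, 0.43 and -1.51 in the same order. The summed inhibitory signal was 22606 to 24225 in the mutants and 19876 to 21258 in the controls, without overlap. The part of these cell types in the values of Aldoc, Pcx or Slc2a3 was not tested.

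**Figure D4:**
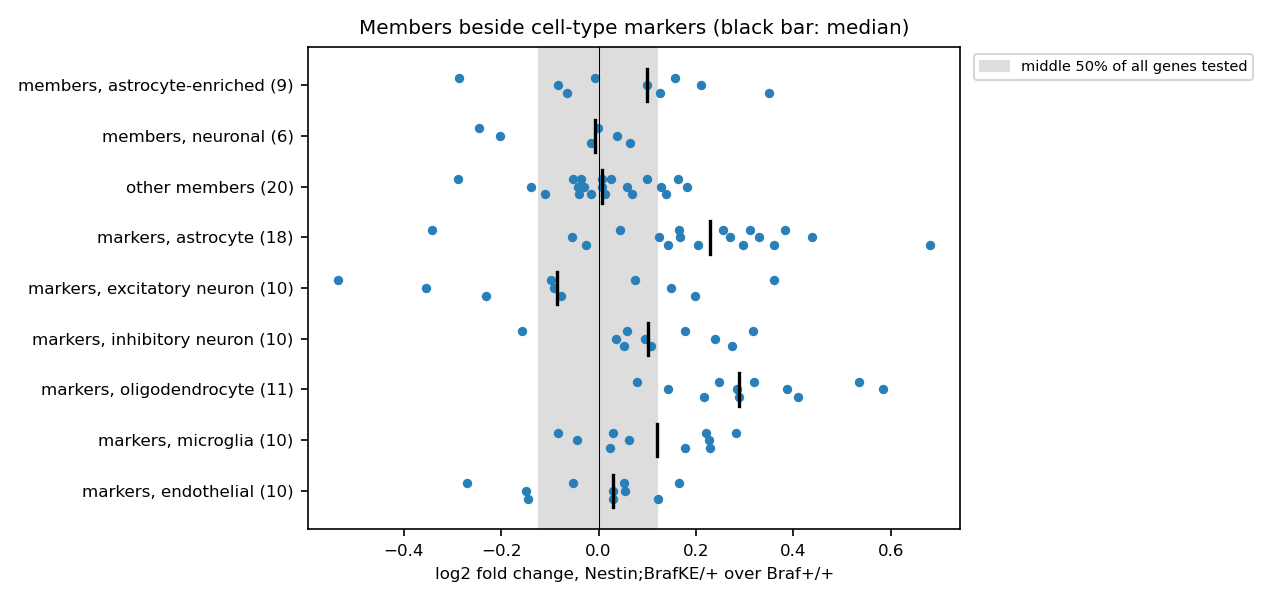
Log2 fold change of each member, split by cell assignment, beside markers of 6 cell types, with the number of rows in brackets, the median as a black bar and the middle 50% of all genes tested in grey. The astrocyte and oligodendrocyte markers have medians of 0.23 and 0.29, to the right of the medians of the astrocyte-enriched (0.10) and neuronal members (-0.0081).

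Beyond the 34 genes, 63 further genes of sugar transport, glycolysis, glycogen and pyruvate metabolism were listed, and 53 of them were tested. With limma, 2 of the 53 (3.77%) rose and 0 fell, against 2.88% of all genes called. An unadjusted p under 0.05 was found for 8 (15.1%, against 18.5% of all genes), so that the list stood near the background, and the median log2 fold change was 0.030. Gaa, the lysosomal acid alpha-glucosidase that degrades glycogen in lysosomes (ENSMUSG00000025579, chromosome 11, 119158708 to 119176525), had means of 6011 ± 278 (SD, n = 5) in the controls and 7247 ± 477 (SD, n = 4) in the mutants. It rose by 0.27 on the log2 scale (SE 0.061, limma, adjusted p = 0.0449), with values of 0.36, 0.32 and 0.057 by series. Ppp1r3f, a subunit that targets protein phosphatase 1 to glycogen (ENSMUSG00000039556, chromosome X, 7423535 to 7440541), had means of 296 ± 29.8 (SD, n = 5) and 414 ± 38.8 (SD, n = 4). Its rise was 0.49 on the log2 scale (SE 0.11, limma, adjusted p = 0.0485), with 0.68, 0.29 and 0.46 in the series, and the predicted gene Gm36995 overlaps it on the same strand. All mutant libraries lay above all controls for both genes, but the calls lay close to the threshold and both were lost without Braf+/+ replicates 2 and 4 (log2 fold change 0.24, adjusted p = 0.279 for Gaa, and 0.60, adjusted p = 0.138 for Ppp1r3f). In the 9 fits that each left out 1 library, 0 or 1 of these genes passed.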

How the data were processed

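Per the labels and the methods of the study, TruSeq stranded mRNA libraries were made from hippocampus, and the authors used Trim Galore, STAR on GRCm39 and Salmon, and normalised for DESeq2 with an adjustment for batches. The authors deposited the result as a signal, 1 normalised value per gene and library. Within a library, 100% of the values of genes with a mean below 1000 were whole multiples of 1 step (0.9934 to 1.0043, tolerance 0.05), and no gene was at 0. These whole numbers are batch-adjusted, so count models were not used.

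Groups were taken from the labels, and replicates are the libraries they number, 1 per mouse. All genes at or above a mean of 10 entered a limma 3.58.1 fit (R 4.3.3) of log2(value + 1) on genotype and series, a scale that understates fold changes of low genes. Two-sided p-values were Benjamini-Hochberg adjusted over 16196 genes (threshold 0.05). Python 3.11.15, pandas 2.3.3 and matplotlib 3.10.9 drew figures and ran exact permutation tests. Steps were tested on simulated data. Coordinates came from Gencode vM39.

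The members and lists were chosen with earlier results of these data known. Every member is named, those past the threshold or in a ratio at the smallest possible p with every library, and further pathway and marker genes where they passed, at most 6 per list. Alternatives were other pseudocounts, filters, scalings, series terms, weights, robust eBayes, a replicate block and leaving out libraries.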

Additional observations from a re-analysis of the deposited data

Results flagged for a closer look

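In 90 groups of 4 or 5 libraries examined, 2 held a library far from the others, and chance alone gives about 1 in 20. Both lie in Braf+/+ replicate 4. Gapdh was lowest there, at 34874 against 40347 to 42210, with a gap of 0.764 of the group's range. Pdha1 was highest there, at 5357 against 5109 to 5164, with a gap of 0.776 of the range.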

How the results depend on the processing

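Of the 35 member rows, 31 did not pass in any of 21 fits, and Aldoc passed in 18 of them, with log2 fold changes from 0.27 to 0.40. Of the 34 symbols' rows, 1 passed in the reported fit and 4 (Aldoc, Pcx, Pgm1 and Slc2a3) without the series term. With replicate numbers as a block 4 passed as well, beside 1405 of all 16196 genes, and the block turned Pygb to 0.011. The numbers did not pair the libraries, since the correlation of same-numbered deviations ran from -0.39 to 0.41. The block left the number of further pathway genes within 1.5 times. It moved the difference of each isozyme ratio by less than 1 residual SD, and the permutation tests were not rerun with it. Leaving out 1 library at a time gave 0 to 1 member, with 0 without Nestin;BrafKE/+ replicate 1 or Braf+/+ replicate 4, and 0 to 1 of the further pathway genes, against 2. The latter count was 1 with no filter on low values, 7 without the series term, and 0 with 4 name prefixes and with array weights. Ratios without the series term gave 4 at p under 0.05, against 2. Leaving out both Braf+/+ replicates 2 and 4 gave 0 members and 0 further pathway genes, and turned Eno2 to -0.046, Gapdh to -0.0075, Ldha to -0.0019, Pgk1 to -0.059, Pkm to -0.085 and Tpi1 to -0.0013. The cause was not tested, though these fits hold fewer libraries and leave series B without a control.

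Signs of members close to 0 turned in 7 of 383 values with all libraries and in 29 of 315 with 1 left out. Quantile normalisation gave 0.023 for Aldoa and -0.024 for Pkm, 4 name prefixes gave 0.011 for Aldoa and -0.0072 for Pgk1, and array weights gave -0.0014 for Pgk1 and -0.0090 for Pkm. With 1 library left out, the log2 fold change ran from -0.030 to 0.048 for Aldoa, from -0.72 to 0.37 for its second row, from -0.012 to 0.13 for Eno2, from -0.011 to 0.23 for Gapdh, from -0.0058 to 0.046 for Gpi1, from -0.083 to 0.051 for Hk1, from -0.46 to 0.24 for Hk2 and from -0.011 to 0.029 for Ldha. It ran from -0.064 to 0.023 for Pdhb, from -0.073 to 0.0012 for Pdk1, from -0.033 to 0.029 for Pgk1, from -0.065 to 0.044 for Pkm, from -0.055 to 0.043 for Pygb, from -0.65 to 0.00024 for Slc16a3 and from -0.0035 to 0.12 for Slc16a7. Among members that kept their sign it ran, for example, from 0.066 to 0.24 for Ldhb, from 0.020 to 0.25 for Pygm, from 0.014 to 0.29 for Slc16a1, from -0.29 to -0.026 for Pfkl and from -0.17 to -0.017 for Gys1. Depth is unknown, and the precision rests on 4 and 5 libraries.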
